A study of Mus musculus with 16 samples.

Results

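Accessibility of chromatin was compared between heterozygous and wild-type centroblasts, the spleen germinal center B cells labelled CB, by taking the 8 CB libraries of a series of 16. The members were taken by their labels, and the comparison was chosen with earlier results of these data known. They are 4 libraries of Smarca4+/+ mice (WT) and 4 of Smarca4+/- mice (HET), all of strain C57BL/6 and aged 8 to 10 weeks, made by Omni-ATAC, in which a transposase cuts open chromatin and leaves sequencing adapters there. The other 8 libraries are WT and HET cells labelled CC, read here as centrocytes, and they serve below only as values set beside the CB results. The labels spell out neither abbreviation, give no sort gate, no immunization and no sex, and do not say how or in which cells the Smarca4 allele was made. Nothing in them ties a replicate to a separate animal, so each p-value refers to the spread among these libraries, and that spread may be technical.

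BRG1, the product of Smarca4, is a motor subunit of the BAF complex, which uses ATP to slide and evict nucleosomes and so opens DNA to transcription factors. BAF is known for keeping distal enhancers of differentiated cells open, and SMARCA4 is mutated in lymphomas of germinal center origin. In a germinal center, centroblasts divide and mutate their antibody genes in the dark zone, and their progeny, the centrocytes, are selected in the light zone with the help of T cells.

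The values are counts in 82188 peaks of 501 bp, a single set shared by all libraries. Each library held 31696941 to 38798802 counts in WT CB and 38716281 to 51011923 in HET CB, so that all HET libraries except HET 1 were deeper than every WT library. Values below are CPM, a count divided by the TMM-adjusted total of its library, and changes are log2 fold changes of HET over WT with the standard error (SE) of the edgeR quasi-likelihood fit of these 8 libraries. A change is called where the p adjusted by Benjamini-Hochberg over all features is below 0.05. Peaks were also summed per gene, each peak going to the nearest protein-coding gene span within 50 kb, so a gene value describes the openness around a gene and not its transcription. In a bulk library, fewer cells with an open site and less opening in each cell cannot be told apart.

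The Smarca4 gene (chr9:21616106-21704230, mm10) has 9 peaks. Their sum was 184.3, 173.4, 184.2 and 172.0 CPM in WT libraries 1 to 4 and 165.5, 169.5, 165.9 and 164.4 CPM in HET libraries 1 to 4. Every WT library was above every HET library, with 178.5 ± 6.69 in WT and 166.3 ± 2.22 CPM in HET (SD, n = 4), but the change missed the threshold (log2 fold change -0.10, SE 0.03, adjusted p = 0.0607). None of the 9 peaks was called. The peak over its start, chr9:21615760-21616260, measured 42.5, 39.4, 42.4 and 39.1 CPM in WT and 37.7, 37.7, 36.1 and 35.3 CPM in HET (log2 fold change -0.15, adjusted p = 0.0636). The labels do not say which exons are missing from the allele, and openness of the locus does not measure the transcript, so these values are no check of the genotype labels.

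The B cell loci were open in all 8 libraries. Peaks of 25 germinal center genes summed to 6456 to 6517 CPM in WT and 6318 to 6405 in HET. Those of 16 dark zone genes, which include Cxcr4, the receptor that holds cells in the dark zone, summed to 2727 to 2790 CPM in WT and 2695 to 2786 in HET. WT CC libraries had 2086 to 2285 CPM over the same dark zone genes. Over 23 light zone genes WT CB had 3696 to 3848 CPM and WT CC 3428 to 3661, so both lists were more open in CB and the lists alone do not settle the reading of the labels. T cell marker genes summed to 516 to 526 CPM in WT CB, against 853 to 963 in WT CC.

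The 8 libraries lay in 4 tight pairs, WT 1 with WT 3, WT 2 with WT 4, HET 1 with HET 3 and HET 2 with HET 4. The first principal component of log2(CPM + 1) held 25.3% of the variance and separated WT 2 and 4 from HET 2 and 4, and the second held 23.2% and separated WT 1 and 3 from HET 1 and 3. Replicates still differed by more than counting noise: the chi-square per peak was 1.92 to 2.26 within these pairs and 2.72 to 3.49 between libraries of 1 genotype from different pairs. Between genotypes it was 3.52 to 3.95 for odd with odd or even with even replicate numbers. For odd with even numbers it was 2.66 to 3.47, much like the range inside a genotype. The X-linked locus Xist, whose RNA coats the inactive X chromosome, differed along the line of the pairs. It measured 40.4, 24.6, 39.7 and 24.2 CPM in WT 1 to 4 and 41.9, 34.1, 43.4 and 33.6 CPM in HET 1 to 4. Replicates 1 and 3 were thus higher than replicates 2 and 4 in both genotypes, and so was Firre, another X-linked locus, with 79.5 to 87.4 CPM in the replicates 2 and 4 of both genotypes and 116 to 133 CPM in the others. The part that sex, batch or preparation has in this split was not tested.

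**Figure D1:**
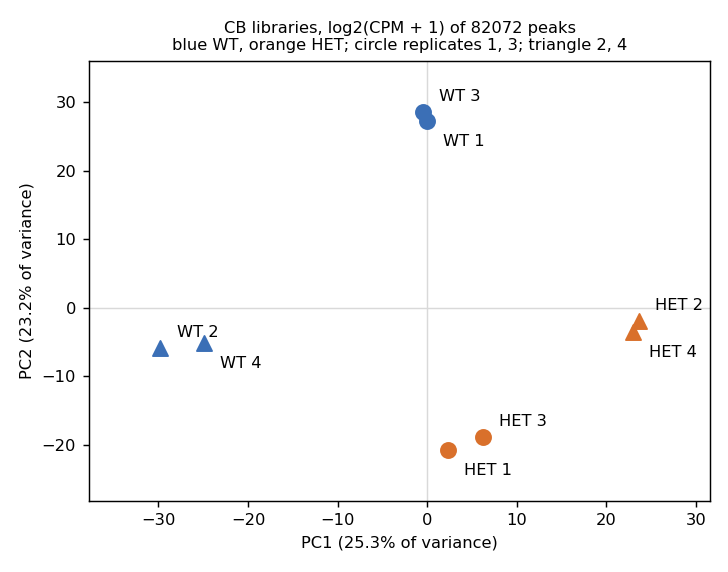
Principal components 1 (25.3% of variance, x axis) and 2 (23.2%, y axis) of log2(CPM + 1) over the 82072 tested peaks; points are the 8 CB libraries, blue WT and orange HET, circles for replicates 1 and 3 and triangles for 2 and 4. The libraries fall into 4 pairs, and the line that separates the genotypes points along the first component for replicates 2 and 4 and along the second for replicates 1 and 3.

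Heterozygous centroblasts had more called losses of accessibility than gains, and most were small. Of 82072 peaks tested, 1076 (1.31%) were called, 416 higher (0.507%) and 660 lower (0.804%) in HET. The gains were shallow changes at strongly open peaks, with a median absolute log2 fold change of 0.23 (1.17-fold), a maximum of 0.85 and a median level of 25.2 CPM. The losses were steeper and at weakly open peaks, with a median of 0.53 (1.44-fold), a maximum of 2.02 and a median level of 4.44 CPM, and 67 of them exceeded a log2 change of 1. Among called peaks of equal level the sizes were alike. The smallest change that can be called depends on the level, so this does not compare gains and losses in general. With peaks cut into 10 groups by rising level, the median changes of gains and losses were 0.35 and -0.39 in group 6. In group 9 they were 0.22 and -0.23. By gene, 482 of 15067 (3.2%) were called, 136 higher (0.903%) and 346 lower (2.3%). With scaling by total counts in place of TMM the peaks split into 243 higher and 834 lower, and with loess offsets that follow the level of a peak into 220 higher and 616 lower. By gene these splits were 152 and 283, and 114 and 353.

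These counts rest on several libraries. Without WT 1 the peak calls fell to 582, without WT 3 to 579, without HET 2 to 314, without HET 3 to 386 and without HET 4 to 269. Gene calls fell to 276 without WT 1, 223 without WT 3, 312 without HET 1, 141 without HET 2, 184 without HET 3 and 130 without HET 4. Of the called genes, 13 of the 136 higher and 82 of the 346 lower were called in each of the 8 fits with 1 library left out, and so were 27 of the 416 higher and 117 of the 660 lower peaks. A fit that included the 8 CC libraries called 106 peaks, 2 of them higher.

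Comparing genotypes inside each set of replicates gave many more calls. Such comparisons join the libraries with the highest chi-square per peak, 3.52 to 3.95. With the spread taken inside the 4 pairs, 5770 peaks (7.03%) and 3473 genes (23.1%) were called between HET and WT in replicates 1 and 3, and 6389 peaks (7.78%) and 2742 genes (18.2%) in replicates 2 and 4. The genotype difference itself differed between the sets at 6314 peaks (7.69%) and 3478 genes (23.1%). Libraries of a pair may share more than their genotype, and the labels do not say what, so these counts may describe the pairs and not the genotypes. All 1076 peaks and 482 genes called over the 8 libraries had the same sign in both sets, which the pooled test favours, since its spread includes the split. The 2 sets differed by the test of the difference at 9 of the 416 higher and 40 of the 660 lower peaks, and at 14 of the 136 higher and 85 of the 346 lower genes.

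**Figure D2:**
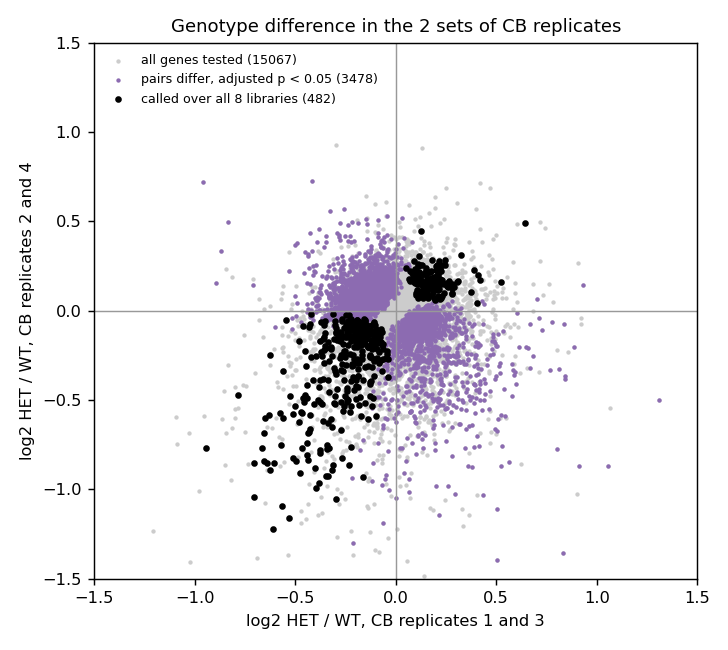
Log2 fold change of HET over WT in CB replicates 1 and 3 (x axis) against replicates 2 and 4 (y axis) for 15067 genes, with 8 genes outside the axes; purple genes differ between the sets at adjusted p below 0.05 (3478) and black genes are the 482 called over all 8 libraries. The black genes lie in the corners where both sets have the same sign, and the purple genes spread mainly along the other diagonal.

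Gene starts held a larger share of the gains, and stretches far from genes a larger share of the losses, than of the tested peaks. No test was made of these shares. A peak was placed in a start window if it overlapped the stretch from 250 bases before to 50 bases after a RefSeq gene start. Start windows held 161 of the 416 higher peaks (38.7%) and 34 of the 660 lower ones (5.15%), against 12.97% of the tested peaks. More than 50 kb from any protein-coding gene lay 8 of the higher peaks (1.92%) and 152 of the lower ones (23.0%), against 8.76% of the tested peaks. The median log2 fold change of all peaks was 0.03 in start windows and -0.08 beyond 50 kb. Intragenic peaks, 50.98% of those tested, made up 40.6% of the higher and 46.1% of the lower ones.

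The median of the peaks beyond 50 kb differed between the sets of replicates. Their median log2 fold change was -0.17 in replicates 2 and 4 and 0.01 in replicates 1 and 3, although single peaks of this class were lost in both sets. Of the peaks lower within replicates 1 and 3, 7.26% lay beyond 50 kb, which is near the share of all peaks, and of those lower within replicates 2 and 4, 23.7% did. The start window medians were 0.02 in replicates 1 and 3 and 0.05 in replicates 2 and 4. In the CC libraries the medians were -0.05 in start windows and -0.06 beyond 50 kb. Location also went along with the level of a peak. Median levels were 27.1 CPM in start windows and 3.40 CPM beyond 50 kb, and the tenth of peaks with the lowest level had a median change of -0.26, against 0.03 in the tenth with the highest. The part of level in the pattern by location was not tested.

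**Figure D3:**
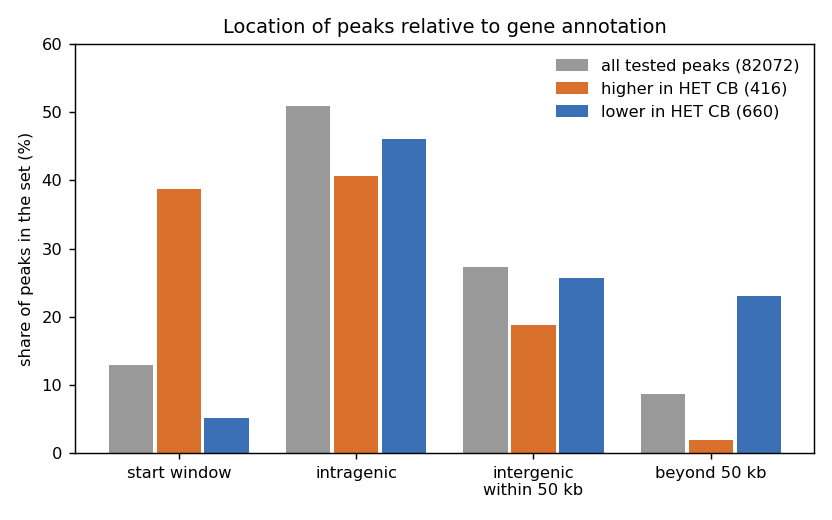
Share of peaks (%, y axis) in 4 classes of location (x axis) among all 82072 tested peaks (grey), the 416 higher in HET CB (orange) and the 660 lower (blue). Start windows hold 38.7% of the higher and 5.15% of the lower peaks, and the class beyond 50 kb 1.92% and 23.0%.

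The shares of all counts were compared over whole libraries. The share of counts in start windows was 30.3% ± 0.07 in WT and 30.7% ± 0.21 in HET (SD, n = 4), and every HET library (30.4 to 30.8%) was above every WT library (30.2 to 30.3%). The exact two-sided permutation test over the 70 splits gave p = 0.0286, the smallest it can give, and 0.0571 after adjustment over the 4 location classes. The share beyond 50 kb was 5.06% ± 0.147 in WT and 4.86% ± 0.119 in HET (SD, n = 4) and overlapped between the genotypes (exact permutation p = 0.114, adjusted 0.152). Its difference was 0.0284 percentage points in replicates 1 and 3 and -0.42 in replicates 2 and 4. For counts within 1 kb of either gene end, the shares were 41.9% ± 0.25 and 42.5% ± 0.33 (exact permutation p = 0.0571), a difference of 0.611 percentage points. That difference was 0.224 points in replicates 1 and 3 and 0.998 in replicates 2 and 4.

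By chromosome the calls were uneven. Chromosome 19 had 1 higher and 32 lower peaks among 2538, and chromosome 11 had 7 and 40 among 5475. Chromosomes 1 and 2 went the other way, each with 49 higher and 36 lower peaks, among 5816 and 6656. No test was made of these counts. The median log2 change of all peaks of chromosome 19 was -0.06 in replicates 1 and 3 and 0.003 in replicates 2 and 4. That of chromosome 11 was -0.06 and -0.001, and that of chromosome 1 was 0.05 and -0.01. Chromosome 2 had 0.01 and 0.02.

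The start windows of gained and lost peaks had different base composition. The windows below are shown because their peaks were called in each of the 8 fits with 1 library left out. They were chosen after the values were seen. They have the 3 lowest and 3 highest fold changes among the considered peaks of this kind that overlap the start of their own gene. Not every chromosome was considered in this choice, so windows with larger changes may have been passed over. Sequences are RefSeq GRCm38.p6, each 300 bases on the gene's strand, 5′ to 3′. Capitals mark matches to TGANTCA (AP-1), CCGGAAG (ETS), GGGCGG (SP and KLF), TGTGGT (RUNX), TGACGTCA (CRE) or ATGCAAAT (OCT) on either strand.
S100a3 (chr3:90586702-90587001, plus strand, lower): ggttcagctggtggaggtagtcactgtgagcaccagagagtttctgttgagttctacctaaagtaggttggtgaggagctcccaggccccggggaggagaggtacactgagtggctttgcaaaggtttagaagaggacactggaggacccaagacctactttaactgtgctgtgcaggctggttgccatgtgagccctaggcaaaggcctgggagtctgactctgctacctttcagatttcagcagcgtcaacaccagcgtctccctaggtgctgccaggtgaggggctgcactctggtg
Izumo1r (chr9:14903718-14904017, minus strand, lower): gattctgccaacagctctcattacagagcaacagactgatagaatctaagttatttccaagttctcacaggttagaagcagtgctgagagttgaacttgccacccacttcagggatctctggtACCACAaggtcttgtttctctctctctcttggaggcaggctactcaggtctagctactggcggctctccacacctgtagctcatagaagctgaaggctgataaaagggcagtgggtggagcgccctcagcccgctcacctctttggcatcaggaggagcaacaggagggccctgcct
Ampd3 (chr7:110773386-110773685, plus strand, lower): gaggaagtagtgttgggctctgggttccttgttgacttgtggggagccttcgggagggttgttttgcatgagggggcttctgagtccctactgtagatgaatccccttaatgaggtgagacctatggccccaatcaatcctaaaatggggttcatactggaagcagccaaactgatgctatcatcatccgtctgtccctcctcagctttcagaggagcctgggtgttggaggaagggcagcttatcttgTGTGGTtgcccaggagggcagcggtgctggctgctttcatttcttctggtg
Fbxl21 (chr13:56522222-56522521, plus strand, higher): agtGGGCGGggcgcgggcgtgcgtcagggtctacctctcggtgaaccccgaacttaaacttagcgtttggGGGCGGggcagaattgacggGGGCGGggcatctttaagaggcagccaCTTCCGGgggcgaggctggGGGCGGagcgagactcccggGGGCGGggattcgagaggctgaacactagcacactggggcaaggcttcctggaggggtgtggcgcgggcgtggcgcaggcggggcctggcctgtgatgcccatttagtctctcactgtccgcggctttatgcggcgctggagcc
Emb (chr13:117220323-117220622, plus strand, higher): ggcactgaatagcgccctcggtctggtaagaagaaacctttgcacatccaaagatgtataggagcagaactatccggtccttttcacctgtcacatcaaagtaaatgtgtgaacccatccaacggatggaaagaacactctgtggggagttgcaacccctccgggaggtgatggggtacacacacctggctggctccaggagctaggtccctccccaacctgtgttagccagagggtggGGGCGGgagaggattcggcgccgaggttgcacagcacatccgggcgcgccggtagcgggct
Trp73 (chr4:154139826-154140125, minus strand, higher): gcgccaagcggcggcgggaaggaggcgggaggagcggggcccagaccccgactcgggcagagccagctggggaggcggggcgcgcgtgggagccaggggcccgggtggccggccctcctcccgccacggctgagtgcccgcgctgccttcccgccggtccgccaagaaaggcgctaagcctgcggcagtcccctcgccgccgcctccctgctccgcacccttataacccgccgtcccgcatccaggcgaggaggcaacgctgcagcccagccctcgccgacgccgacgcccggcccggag

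The 3 windows that lost accessibility held 3 CpG each, and those that gained held 27 (Fbxl21), 14 (Emb) and 39 (Trp73). Fbxl21 carries 5 GGGCGG matches and 1 ETS match, Emb 1 GGGCGG match, and Izumo1r and Ampd3 1 RUNX match each. S100a3, a small calcium-binding protein, measured 4.08, 4.98, 4.204 and 4.21 CPM in WT and 2.86, 2.78, 2.29 and 1.91 CPM in HET at its window peak (log2 fold change -0.83, SE 0.14, adjusted p = 0.00226). Ampd3, an AMP deaminase, measured 9.46, 9.49, 9.23 and 9.66 CPM in WT and 7.43, 7.25, 6.64 and 6.77 CPM in HET (log2 fold change -0.43, adjusted p = 0.00775). In both genes no HET library reached the lowest WT library.

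Izumo1r, the folate receptor 4 found on regulatory and follicular helper T cells, measured 11.1, 12.995, 10.5 and 11.9 CPM in WT and 8.44, 8.51, 7.48 and 9.27 CPM in HET at its window peak (log2 fold change -0.46, adjusted p = 0.00535). Trp73, a p53 family transcription factor, measured 22.2, 19.9, 18.5 and 21.4 CPM in WT and 23.996, 26.3, 26.7 and 25.1 CPM in HET (log2 fold change 0.32, adjusted p = 0.00552). Fbxl21, an F-box protein, measured 17.7, 17.8, 18.3 and 16.6 CPM in WT and 21.4, 20.8, 22.2 and 22.2 CPM in HET (log2 fold change 0.30, adjusted p = 0.0077). Emb, embigin, which escorts monocarboxylate transporters to the membrane, measured 24.3, 29.1, 22.8 and 28.4 CPM in WT and 33.3, 30.9, 33.4 and 31.3 CPM in HET (log2 fold change 0.30, adjusted p = 0.0101). The genotypes did not overlap in any of these 4 peaks. Emb rose by 0.50 in replicates 1 and 3 and 0.11 in replicates 2 and 4.

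Over all called start windows the composition went the same way. The median GC content was 65% in the 161 windows of higher peaks, 53% in the 34 of lower peaks and 61% in the 10646 tested, and the median number of CpG was 25, 5 and 21. A GGGCGG match was present in 70.2% of the higher, 38.2% of the lower, 64.3% of the tested and 35.9% of all 32619 start windows. An ETS match was present in 26.7%, 5.88%, 16.7% and 8.92%, and a RUNX match in 11.8%, 35.3%, 13.03% and 16.6%. Matches to the AP-1 letters were found in 2.48% of the higher and 2.94% of the lower windows, against 4.80% of the tested ones. Split into 4 groups by GC, the tested windows of lowest content (up to 54.3%) had 18 higher and 20 lower peaks, and the 3 other groups had 44 and 7, 49 and 3, and 50 and 4. A match describes letters and not a bound site. The part of GC content in the gains was not tested.

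Among genes of above-median accessibility whose genotypes did not overlap, the largest loss was at Chrm3, the muscarinic acetylcholine receptor M3 (chr13:9875486-10361062). Its 23 peaks summed to 49.6, 46.03, 50.7 and 46.1 CPM in WT libraries 1 to 4 and 36.7, 34.4, 36.6 and 32.1 CPM in HET libraries 1 to 4. The level was 48.1 ± 2.42 in WT and 34.9 ± 2.19 CPM in HET (SD, n = 4) (log2 fold change -0.46, SE 0.05, adjusted p = 8.97e-05), and the log2 change was -0.45 in replicates 1 and 3 and -0.47 in replicates 2 and 4. Vipr2, a receptor for vasoactive intestinal peptide (chr12:116077420-116148637), measured 95.3, 103.8, 98.6 and 99.4 CPM in WT and 81.6, 79.2, 76.6 and 79.4 CPM in HET (log2 fold change -0.33, SE 0.03, adjusted p = 7.8e-05), with -0.29 in replicates 1 and 3 and -0.36 in replicates 2 and 4. Atp10b, a lipid flippase of the P4-ATPase family, measured 86.6, 95.3, 89.6 and 89.6 CPM in WT and 75.9, 72.5, 67.1 and 73.6 CPM in HET (log2 fold change -0.32, SE 0.04, adjusted p = 0.000418). In all 3 genes the highest HET library stayed below the lowest WT library.

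Immune cell genes stood among the 10 largest losses of this kind. Fcer2a, which encodes CD23, an IgE receptor of mature follicular B cells (chr8:3680280-3694174), measured 44.5, 48.2, 47.7 and 45.1 CPM in WT and 38.6, 39.1, 37.9 and 36.8 CPM in HET (log2 fold change -0.28, SE 0.04, adjusted p = 0.00162). Izumo1r measured 63.4, 64.6, 65.2 and 57.6 CPM in WT and 52.9, 50.1, 49.5 and 50.4 CPM in HET over its 8 peaks (log2 fold change -0.31, SE 0.04, adjusted p = 0.000824). Grap2, the adaptor GADS of T cell receptor signaling, measured 141.0, 121.4, 143.9 and 120.0 CPM in WT and 109.8, 105.9, 113.2 and 104.9 CPM in HET (log2 fold change -0.28, SE 0.05, adjusted p = 0.00524). WT 1 and 3 were the highest Grap2 libraries, and the change was -0.35 in replicates 1 and 3 and -0.20 in replicates 2 and 4, a difference that passed its test (adjusted p = 0.0104). Tent5a, a poly(A) polymerase, had 48.8 ± 1.93 in WT and 39.9 ± 2.29 CPM in HET (SD, n = 4) (log2 fold change -0.29, adjusted p = 0.00327), and Frmd4b, a FERM domain scaffold, 63.4 ± 1.12 in WT and 52.4 ± 1.19 CPM in HET (SD, n = 4) (log2 fold change -0.28, adjusted p = 0.000463). The predicted genes Gm5127 (51.8 ± 4.02 in WT and 38.1 ± 3.37 CPM in HET (SD, n = 4)) and Gm1966 (52.9 ± 1.77 in WT and 43.3 ± 3.12 CPM in HET (SD, n = 4)) fell by 0.44 and 0.29 on the log2 scale (adjusted p = 0.000778 and 0.00362). All 10 of these genes were called in each of the 8 fits with 1 library left out.

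Several genes lost many peaks at once. Slc16a7, the monocarboxylate transporter MCT2 (chr10:125219270-125389586), had 5 of 11 peaks lower, and its sum measured 23.04, 25.3, 24.7 and 26.1 CPM in WT libraries 1 to 4 and 15.5, 13.8, 15.8 and 14.7 CPM in HET libraries 1 to 4 (log2 fold change -0.73, SE 0.06, adjusted p = 5.64e-06). The steepest of its peaks, chr10:125389378-125389878, lies 42 bp from the gene span and measured 4.61, 4.73, 5.05 and 4.79 CPM in WT and 2.61, 2.18, 2.67 and 2.53 CPM in HET (log2 fold change -0.94, SE 0.12, adjusted p = 6.88e-05). The 5 lower peaks had log2 changes from -0.94 to -0.64. No HET library reached the WT range in the sum or at that peak.

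Vipr2 had 5 of 10 peaks lower (-0.59 to -0.34) and Chrm3 5 of 23 (-0.80 to -0.58). Ubash3b, a phosphatase that dampens antigen receptor signaling, had 5 of 30 peaks lower (-0.67 to -0.37) and measured 203.7 ± 6.705 in WT and 173.2 ± 4.22 CPM in HET (SD, n = 4) in all (log2 fold change -0.23, adjusted p = 0.000418). Nav2, neuron navigator 2, had 5 of 50 lower (-0.75 to -0.52) and a smaller change of its sum (log2 fold change -0.15, adjusted p = 0.0236), whose call ended without HET 1, HET 2 or HET 3 (adjusted p 0.0554 to 0.0735). Frmpd4, a scaffold of synapses, had 4 of 9 peaks lower (-0.96 to -0.30) and Ldlrad3, a receptor of the LDL receptor family, 4 of 23 (-0.62 to -0.36). These 7 genes and Il10 below are the 8 with the most called peaks in 1 direction.

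Of the 6 peaks with the largest losses among those of above-median level whose genotypes did not overlap, 4 lay outside protein-coding genes. The peak chr10:126501917-126502417, 365662 bp from Atp23, measured 8.77, 8.61, 8.38 and 8.66 CPM in WT and 6.79, 5.47, 5.68 and 5.56 CPM in HET (log2 fold change -0.55, SE 0.09, adjusted p = 0.00231). The peak chr14:105499077-105499577, 190029 bp from Ndfip2, an adaptor of Nedd4 ubiquitin ligases, measured 8.48, 10.8, 9.66 and 10.7 CPM in WT and 7.12, 7.57, 5.95 and 6.79 CPM in HET (log2 fold change -0.53, SE 0.09, adjusted p = 0.00382). A peak 6009 bp from 2310061N02Rik, chr16:88700912-88701412, had 12.7 ± 1.59 in WT and 8.95 ± 1.09 CPM in HET (SD, n = 4) (log2 fold change -0.52, adjusted p = 0.004). These 3 had negative log2 changes in both sets of replicates, and the other, near Vps8, is described below.

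A peak inside 3110082I17Rik, chr5:139367960-139368460, had 9.59 ± 0.988 in WT and 6.63 ± 0.357 CPM in HET (SD, n = 4) (log2 fold change -0.53, adjusted p = 0.00266). The peaks at Shank2, a synaptic scaffold, and Vps8, part of an endosomal tether, fell mainly in 1 set of replicates. Shank2 (chr7:144240307-144240807, log2 fold change -0.58, adjusted p = 0.00884) had -0.21 in replicates 1 and 3 and -0.94 in replicates 2 and 4 (adjusted p of the difference 0.00341). Vps8 (chr16:21364845-21365345, 58023 bp from the gene, log2 fold change -0.54, adjusted p = 0.0108) had -0.86 and -0.21 (adjusted p of the difference 0.00844).

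The gains by gene were smaller. Xylb, xylulokinase (chr9:119357381-119393797), had the largest among genes of above-median accessibility without overlap and measured 40.6, 41.7, 43.3 and 41.3 CPM in WT libraries 1 to 4 and 49.4, 49.01, 49.8 and 49.9 CPM in HET libraries 1 to 4 (log2 fold change 0.25, SE 0.04, adjusted p = 0.00209). Mrps15, a protein of the mitochondrial ribosome, measured 49.8, 48.1, 50.8 and 51.8 CPM in WT and 57.7, 62.6, 56.2 and 59.5 CPM in HET (log2 fold change 0.23, SE 0.04, adjusted p = 0.00513). Ryk, a receptor for Wnt proteins, measured 63.6, 65.6, 61.7 and 62.4 CPM in WT and 75.6, 68.5, 76.3 and 73.2 CPM in HET (log2 fold change 0.21, SE 0.04, adjusted p = 0.00661), and Cfap74, a protein of cilia and flagella, 73.9, 75.5, 79.2 and 78.7 CPM in WT and 88.1, 88.6, 89.2 and 89.8 CPM in HET (log2 fold change 0.21, SE 0.03, adjusted p = 0.00212). The HET libraries of Xylb and of Cfap74 spanned under 2 CPM, and every one of them was above every WT library.

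Lrrc8d, a subunit of volume-regulated anion channels, measured 64.3 ± 1.91 in WT and 73.6 ± 1.39 CPM in HET (SD, n = 4) (log2 fold change 0.20, adjusted p = 0.00524), and Caprin2, an RNA-binding protein, 97.5 ± 3.42 in WT and 111.5 ± 2.396 CPM in HET (SD, n = 4) (log2 fold change 0.19, adjusted p = 0.00375). Pax6, a transcription factor of the developing eye and brain, measured 49.9 ± 1.4997 in WT and 57.1 ± 1.88 CPM in HET (SD, n = 4) (log2 fold change 0.19, adjusted p = 0.0114), and its call ended without HET 4 (adjusted p 0.0603). Apold1 measured 43.6 ± 2.86 in WT and 50.1 ± 0.839 CPM in HET (SD, n = 4) (log2 fold change 0.20, adjusted p = 0.0224) and lost its call without WT 1, HET 2, HET 3 or HET 4 (adjusted p 0.0567 to 0.082). Zfp637, a zinc finger protein, measured 45.4 ± 3.51 in WT and 52.1 ± 1.8999 CPM in HET (SD, n = 4) (log2 fold change 0.20, adjusted p = 0.038). Its call ended without WT 1, WT 3 or any single HET library (adjusted p 0.0612 to 0.123), and with loess offsets (0.0543).

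Il10, the cytokine interleukin 10, was the gene with the most gained peaks. Its 9 peaks (chr1:131019845-131024970 for the gene) summed to 114.4, 119.4, 113.6 and 123.0 CPM in WT libraries 1 to 4 and 136.7, 136.0, 144.7 and 135.3 CPM in HET libraries 1 to 4 (log2 fold change 0.23, SE 0.03, adjusted p = 0.000925). The gain was 0.30 in replicates 1 and 3 and 0.16 in replicates 2 and 4, and these differed (adjusted p = 0.0187). HET 3 was the highest library, and no HET library overlapped WT.

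The 4 called peaks lay on both sides of the gene and inside it. The most changed, chr1:130993636-130994136, lies 25959 bp from the gene span and measured 10.2, 10.96, 10.5 and 10.3 CPM in WT and 12.8, 14.2, 14.3 and 14.3 CPM in HET (log2 fold change 0.41, SE 0.07, adjusted p = 0.004). The peak chr1:131038541-131039041, 13821 bp away on the other side, measured 7.28, 7.36, 7.997 and 7.25 CPM in WT and 10.4, 9.47, 10.5 and 8.72 CPM in HET (log2 fold change 0.38, SE 0.09, adjusted p = 0.0187). A peak 16342 bp away, chr1:131003253-131003753, had 24.1 ± 2.53 in WT and 28.8 ± 0.776 CPM in HET (SD, n = 4) (log2 fold change 0.26, adjusted p = 0.0217), and the intragenic peak chr1:131021370-131021870 16.7 ± 0.971 in WT and 19.96 ± 0.872 CPM in HET (SD, n = 4) (log2 fold change 0.26, adjusted p = 0.0284). Of the 5 others, 4 had log2 changes of 0.18 to 0.24 that missed the threshold, and 1 had 0.01.

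Other gained peaks lay within genes. Msh3, a mismatch repair protein, had 6.99 ± 0.657 in WT and 9.53 ± 0.546 CPM in HET (SD, n = 4) at chr13:92327114-92327614 (log2 fold change 0.45, SE 0.09, adjusted p = 0.00816). Lta4h, leukotriene A4 hydrolase, had 5.93 ± 0.521 in WT and 8.17 ± 0.467 CPM in HET (SD, n = 4) at chr10:93467704-93468204 (log2 fold change 0.46, SE 0.09, adjusted p = 0.00978). Ccdc177 had 7.47 ± 0.35 in WT and 10.4 ± 1.68 CPM in HET (SD, n = 4) at chr12:80758134-80758634 (log2 fold change 0.48, SE 0.09, adjusted p = 0.00928), and this call ended without HET 3 (adjusted p 0.0634). A further peak of Emb, chr13:117222995-117223495, had 6.49 ± 0.0981 in WT and 8.64 ± 1.04 CPM in HET (SD, n = 4) (log2 fold change 0.41, adjusted p = 0.0208), lost without HET 1 (0.0799). Ankmy1 (chr1:92902666-92903166, log2 fold change 0.40, adjusted p = 0.033) lost its call without WT 3, WT 4, HET 2, HET 3 or HET 4 (0.0666 to 0.128).

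**Figure D4:**
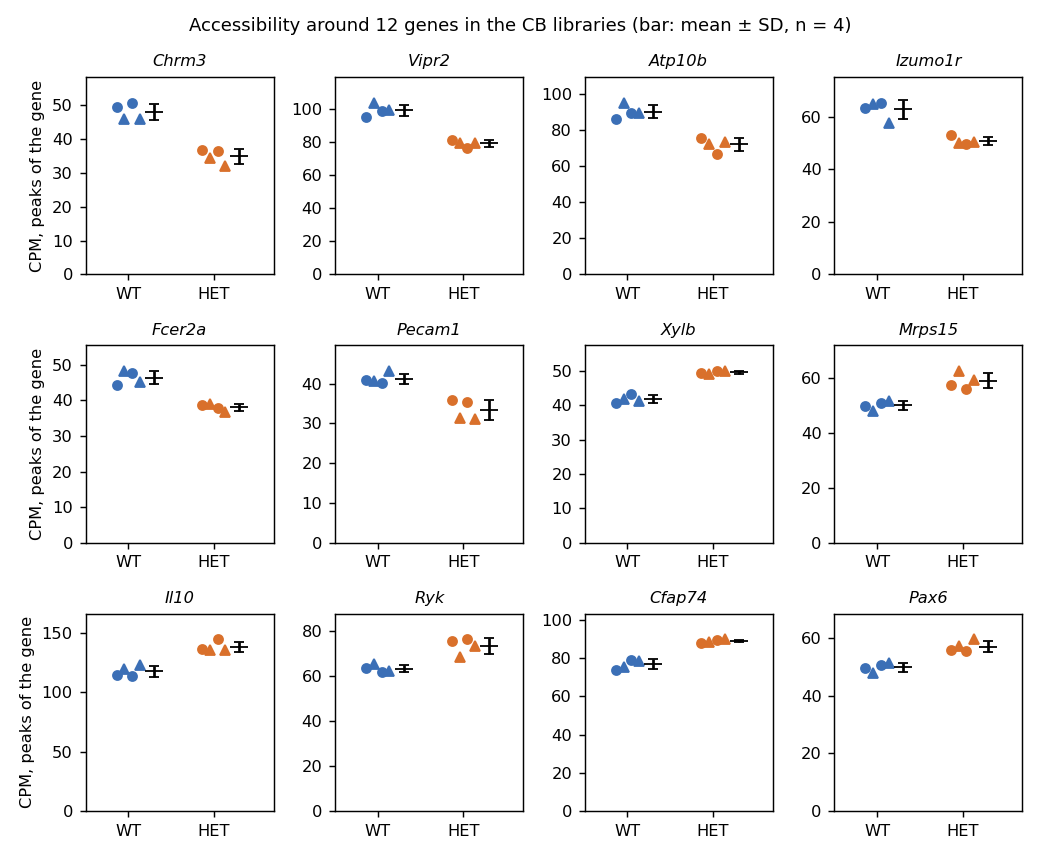
Accessibility of 12 genes (CPM summed over the peaks of the gene, y axis from 0) in the 4 WT and 4 HET CB libraries (x axis); circles are replicates 1 and 3, triangles 2 and 4, and the bar is the mean ± SD (n = 4). The top row and Fcer2a and Pecam1 are lower in all HET libraries, and Xylb, Mrps15, Il10, Ryk, Cfap74 and Pax6 are higher in all of them.

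The germinal center programs themselves changed little. In the germinal center list 2 of 25 measured genes were lower and none higher, in the dark zone list edgeR called none of 16 in either direction, as did DESeq2, and in the light zone list 1 of 23 was lower. The median log2 fold changes of these lists were -0.02, -0.01 and -0.02, against 0.00 over all genes. At an unadjusted p below 0.05, 3 dark zone genes were higher and 3 lower, Ccnb1, a mitotic cyclin, having the smallest p (log2 fold change 0.12, adjusted p = 0.0883) and Tcf3, the transcription factor E2A, the next (log2 fold change -0.12, adjusted p = 0.0977). Cxcr4 measured 550.3 ± 7.99 in WT and 558.8 ± 6.24 CPM in HET (SD, n = 4) (log2 fold change 0.02, adjusted p = 0.592) and Bcl6, the repressor that defines germinal center B cells, 144.6 ± 6.58 in WT and 134.0 ± 2.03 CPM in HET (SD, n = 4) (log2 fold change -0.11, adjusted p = 0.0644).

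The 2 germinal center genes called were Ebf1, a B lineage transcription factor (645.5 ± 22.1 in WT and 598.3 ± 6.096 CPM in HET (SD, n = 4), log2 fold change -0.11, adjusted p = 0.0196), and Bach2, a repressor that holds off plasma cell fate (549.7 ± 11.8 in WT and 510.8 ± 10.99 CPM in HET (SD, n = 4), log2 fold change -0.11, adjusted p = 0.0198). Both changed more in replicates 1 and 3 (-0.16 and -0.15) than in replicates 2 and 4 (-0.06 and -0.06, adjusted p of the difference 0.00222 and 0.00547). Their calls ended with loess offsets (adjusted p 0.0773 and 0.0639). The Ebf1 call also ended without WT 3, HET 2, HET 3 or HET 4 (0.0509 to 0.0685), and the Bach2 call without WT 3, HET 1 or HET 3 (0.0509 to 0.0742).

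In the light zone list the called gene was Cd52, a surface glycoprotein of lymphocytes (56.7 ± 2.34 in WT and 49.8 ± 1.13 CPM in HET (SD, n = 4), log2 fold change -0.19, adjusted p = 0.0144), a call lost without HET 2 (adjusted p 0.0597). Cd83 and Cd86, which mark light zone cells, measured 391.4, 351.7, 390.5 and 357.6 CPM in WT and 348.5, 353.4, 341.9 and 355.7 CPM in HET and 300.5, 281.2, 299.5 and 281.3 CPM in WT and 285.8, 290.5, 288.2 and 296.0 CPM in HET, with log2 changes of -0.09 and 0.00 (adjusted p = 0.115 and 0.969). In both genes WT 1 and 3 were above WT 2 and 4 and the HET libraries lay closer together. The 2 sets differed by their test, with -0.18 against 0.00 for Cd83 and -0.06 against 0.06 for Cd86 (adjusted p = 2.42e-06 and 0.00233). S1pr2, the receptor that confines B cells to the follicle, was not called in CB (135.7 ± 6.67 in WT and 129.4 ± 3.38 CPM in HET (SD, n = 4), log2 fold change -0.07, adjusted p = 0.272).

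Genes of resting and memory B cells held several of the losses. Of 21 memory genes 5 were lower and none higher (median -0.04), and of 14 naive follicular genes 3 were lower and none higher (median -0.04), against 2.3% of all genes lower. The lists share called members, Fcer2a among them, so they are not separate counts, and Bach2 is counted in the germinal center list too. Other called members were Tle3, a corepressor (178.0 ± 3.74 in WT and 159.9 ± 3.46 CPM in HET (SD, n = 4), log2 fold change -0.16, adjusted p = 0.00522), Klf3, a repressor (45.1 ± 2.801 in WT and 40.1 ± 1.02 CPM in HET (SD, n = 4), log2 fold change -0.17, adjusted p = 0.0499), and Cxcr5, the receptor that brings B cells into follicles (166.7 ± 10.5 in WT and 151.4 ± 4.22 CPM in HET (SD, n = 4), log2 fold change -0.14, adjusted p = 0.0496).

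Of these genes, Fcer2a and Tle3 kept their call in each of the 8 fits with 1 library left out. Cxcr5 had a log2 change of -0.25 in replicates 1 and 3 and -0.03 in replicates 2 and 4 (adjusted p of the difference 2.6e-05), and its call ended without WT 1, WT 3 or any single HET library (adjusted p 0.0879 to 0.13). Klf3 lost its call whichever library was left out, except WT 4 (0.059 to 0.15). Both Klf3 and Cxcr5 also missed the threshold under total counts, thinning to equal totals, a term for the Xist split and a fit without robust estimation. With peaks within 10 kb of the gene alone, the calls of Tle3 (adjusted p 0.122), Klf3 (0.0995), Cxcr5 (0.0519) and Zfp637 (0.0503) ended.

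EdgeR called no plasma cell gene of 17 in either direction, and DESeq2 called 1 lower. Tnfrsf13b, the receptor TACI, and Tnfrsf17, the receptor BCMA, had the smallest p (log2 fold change -0.12, adjusted p = 0.0627 and log2 fold change -0.12, adjusted p = 0.149). At an unadjusted p below 0.05, 1 of the 17 was higher and 3 were lower.

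Among signaling lists the counts were low and near the 2.3% of all genes that were lower. In the B cell receptor list 1 of 26 was lower: Cd79a, a signaling chain of the receptor, measured 71.6, 65.3, 70.8 and 69.6 CPM in WT and 58.2, 61.5, 58.3 and 60.6 CPM in HET (log2 fold change -0.22, SE 0.04, adjusted p = 0.00513), all HET libraries below all WT libraries, and was called in each of the 8 fits with 1 library left out. In the NF-kB and CD40 list 1 of 24 was lower: Bcl3, an atypical I-kappa-B protein, measured 135.5 ± 3.82 in WT and 122.3 ± 1.803 CPM in HET (SD, n = 4) (log2 fold change -0.15, SE 0.03, adjusted p = 0.0109), likewise called in all 8. DESeq2, which called 607 genes lower in all, called 2 lower in the first of these lists and 3 in the second. EdgeR called none of 23 apoptosis genes and DESeq2 1 lower, Bak1 and Bad, which promote death, having the smallest p (log2 fold change -0.16, adjusted p = 0.0728 and log2 fold change -0.11, adjusted p = 0.189). At an unadjusted p below 0.05, 1 of these was higher and 4 were lower.

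Of 25 migration and positioning genes 3 were lower, against 2.3% of all genes. DESeq2 called 6 of them lower, and edgeR 2 with total counts or loess offsets. Besides Cxcr5 these were Arhgef1, which relays signals of confinement receptors (120.2 ± 4.52 in WT and 108.1 ± 2.55 CPM in HET (SD, n = 4), log2 fold change -0.15, adjusted p = 0.0158), and Itgal, the integrin chain LFA-1 alpha (72.6 ± 4.57 in WT and 64.7 ± 1.75 CPM in HET (SD, n = 4), log2 fold change -0.16, adjusted p = 0.04). Arhgef1 lost its call without HET 2 or HET 4 (adjusted p 0.0622 and 0.0655) and Itgal without WT 1, WT 3 or any single HET library (0.0795 to 0.12). Of 32 interleukins and receptors Il10 was higher and 1 was lower, Il10ra, the ligand-binding chain of the interleukin 10 receptor. Il10ra measured 98.01, 102.0, 95.8 and 98.2 CPM in WT and 89.2, 87.8, 87.2 and 86.8 CPM in HET (log2 fold change -0.17, SE 0.03, adjusted p = 0.00688), without overlap.

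Within the BAF complex 2 of 30 genes were lower and none higher, with a list median of -0.05, against 2.3% lower and a median of 0.00 over all genes. With total counts or loess offsets 1 was lower, and with DESeq2 5 were. Arid1a, the DNA-binding subunit that marks canonical BAF, measured 170.6, 156.1, 166.3 and 157.4 CPM in WT and 146.2, 143.9, 144.1 and 148.2 CPM in HET (log2 fold change -0.16, SE 0.03, adjusted p = 0.00988). It fell more in replicates 1 and 3 than in 2 and 4 (-0.21 and -0.10, adjusted p of the difference 0.0418), and its call held in all 8 fits with 1 library left out. Bicra, a subunit of the non-canonical complex, measured 293.1 ± 1.59 in WT and 276.1 ± 4.96 CPM in HET (SD, n = 4) (log2 fold change -0.09, adjusted p = 0.0496). Its call ended whichever library was left out, except WT 2 (adjusted p 0.0586 to 0.168) and under total counts, loess offsets and thinning (0.0542 to 0.0648). Of 19 other chromatin regulators mutated in B lymphoma 1 was lower, the acetyltransferase Ep300 (140.4 ± 6.88 in WT and 127.3 ± 2.11 CPM in HET (SD, n = 4), log2 fold change -0.14, adjusted p = 0.0265), a call lost without WT 1, WT 3 or any single HET library (0.0537 to 0.0855).

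Few genes of transcription factor families were called. Of 18 AP-1 genes Atf3, a stress-induced repressor, was higher (272.7 ± 7.61 in WT and 295.4 ± 5.81 CPM in HET (SD, n = 4), log2 fold change 0.12, adjusted p = 0.0224) and Bach2 lower. The AP-1 list had a median log2 change of -0.09 in replicates 1 and 3 and 0.11 in replicates 2 and 4, and at an unadjusted p below 0.05 over all 8 libraries 5 of its genes were higher and 3 lower. The Atf3 call ended without WT 3 or any single HET library (adjusted p 0.0538 to 0.0713). EdgeR called none of 16 ETS genes and DESeq2 1 lower, Ets1 (log2 fold change -0.06, adjusted p = 0.0842) and Spib (log2 fold change -0.10, adjusted p = 0.126) having the smallest p, and at an unadjusted p below 0.05 none was higher and 4 were lower. Of 15 KLF genes 2 were lower, Klf3 and Klf16 (175.8 ± 11.96 in WT and 159.4 ± 3.08 CPM in HET (SD, n = 4), log2 fold change -0.14, adjusted p = 0.0469). The Klf16 call ended without WT 1, WT 3 or any single HET library (0.0684 to 0.13), and under total counts, loess offsets and thinning (0.0504 to 0.0585).

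Markers of T cells and natural killer (NK) cells had lower medians than the B cell lists. Over all peaks the change went along with level too, with a median of -0.26 in the tenth of lowest level and 0.03 in the highest. The part of level in the list medians was not tested. Of 16 T cell markers 5 were lower and none higher, against 2.3% and 0.903% of all genes, with a median of -0.18. Their summed level was 516 to 526 CPM in WT and 492 to 504 in HET, without overlap. This was not particular to T cell markers. The sums of the germinal center, memory, naive follicular, BAF, migration, ETS and KLF lists were also lower in HET without overlap. Of 11 NK markers 2 were lower, with a median of -0.23 (-0.11 with loess offsets), and sums of 261 to 271 and 261 to 265 CPM that overlapped. The T cell receptor and coreceptor genes Cd3e (2.30 CPM in WT, 1.95 in HET), Cd3g (0.967 and 0.717) and Cd8a (1.26 and 1.02) were near the bottom of the measured range and were not called.

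The called T cell markers included Cd8b1 (5.43, 5.57, 5.52 and 6.56 CPM in WT and 3.95, 3.74, 4.53 and 4.18 CPM in HET, log2 fold change -0.49, adjusted p = 0.0198), Tcf7 (33.3 ± 2.51 in WT and 28.3 ± 0.798 CPM in HET (SD, n = 4), log2 fold change -0.24, adjusted p = 0.0241), Lef1 (65.8 ± 2.98 in WT and 58.6 ± 1.25 CPM in HET (SD, n = 4), log2 fold change -0.17, adjusted p = 0.0259) and Cd5 (30.9 ± 2.83 in WT and 25.2 ± 2.82 CPM in HET (SD, n = 4), log2 fold change -0.29, adjusted p = 0.0381). The first 3 had all HET libraries below all WT libraries. Cd5 overlapped between the genotypes, and its change was -0.55 in replicates 1 and 3 and -0.05 in replicates 2 and 4. Each of these calls ended without at least 2 of the 8 libraries: Cd8b1 without HET 2 or HET 4 (adjusted p 0.0538 to 0.0724), Tcf7 without WT 3, HET 1, HET 2 or HET 4 (0.0572 to 0.0803) and with peaks within 10 kb alone (0.164), Lef1 without any single HET library (0.0544 to 0.0855) and Cd5 without WT 1, WT 3, HET 1, HET 3 or HET 4 (0.0538 to 0.121).

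Of the NK markers, Gzmb, granzyme B, measured 3.64, 4.37, 4.38 and 4.804 CPM in WT and 3.33, 2.85, 2.63 and 2.85 CPM in HET (log2 fold change -0.56, adjusted p = 0.0224) and Klrk1, the receptor NKG2D, 2.51, 3.93, 3.45 and 3.46 CPM in WT and 2.298, 2.09, 2.25 and 1.62 CPM in HET (log2 fold change -0.69, adjusted p = 0.0248). Both are weakly open. The Gzmb call ended without WT 3, HET 2, HET 3 or HET 4 (adjusted p 0.0562 to 0.073) and the Klrk1 call without WT 3, HET 2 or HET 4 (0.0612 to 0.0952). Izumo1r, Grap2 and Tcf7, described above, were lower in HET as well, and Tcf7 is itself a member of the T cell list. Whether their losses vary together with these markers over the libraries was not tested. Neither was the part of other cells in those losses.

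Of 14 myeloid markers 1 was lower, Tyrobp, an adaptor of NK and myeloid receptors (45.4 ± 4.15 in WT and 39.4 ± 0.47 CPM in HET (SD, n = 4), log2 fold change -0.20, adjusted p = 0.0412), lost without WT 1, WT 3 or any single HET library (adjusted p 0.0772 to 0.119). Sums were 463 to 489 CPM in WT and 463 to 471 in HET. Neither edgeR nor DESeq2 called any of 6 erythroid and megakaryocyte markers, and at an unadjusted p below 0.05 the edgeR count was 0 too. Itga2b (log2 fold change 0.07, adjusted p = 0.373) and Klf1 (log2 fold change 0.07, adjusted p = 0.444) had the smallest p. Of 10 stromal and follicular dendritic cell markers Pecam1, an adhesion receptor of endothelial and blood cells, was lower, with 40.9, 40.6, 40.1 and 43.2 CPM in WT and 35.8, 31.4, 35.3 and 31.05 CPM in HET (log2 fold change -0.30, SE 0.05, adjusted p = 0.00465), a call that held in all 8 fits with 1 library left out. Sums of that list were 239 to 258 CPM in WT and 235 to 248 in HET.

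The libraries labelled CC give the same genotype contrast and did not enter the CB fit. They are shallower, with 3494356 to 3750936 counts in WT and 5310327 to 7474760 in HET. Their spread is wider (biological coefficient of variation 8.19% by gene, against 4.11% in CB), and 263 of 14777 genes (1.78%) were called there. Of 75643 peaks 77 were called higher (0.102%) and 109 lower (0.144%). Of the 480 genes called in CB and tested in CC, 45 were called in CC, 9.38% of the CB calls and 17.1% of the CC calls. All 45 changed in the direction seen in CB, 38 lower and 7 higher, and none was called in the opposite direction. The sign was the same for 385 of the 480 (80.2%). Of peaks, 24 of 1029 were called in CC, all lower, and 765 had the same sign. Both contrasts set HET against WT libraries whose depths and Xist levels differ, so shared signs are not independent of those. CB and CC libraries also share replicate numbers. The labels do not say whether they come from the same animals, so the contrasts may share animals.

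Slc16a7 was the largest loss by fold in CB among the 45. In CC it measured 203.3, 198.8, 187.5 and 212.0 CPM in WT CC and 167.0, 119.0, 174.5 and 120.6 CPM in HET CC (log2 fold change -0.47, adjusted p = 0.00514). Chrm3 fell in CC by 0.43 on the log2 scale (adjusted p = 0.00413), and Izumo1r by 0.45 (adjusted p = 0.00604). Cobll1, a regulator of cell morphology, measured 55.7, 57.8, 55.3 and 56.3 CPM in WT and 50.4, 47.3, 45.7 and 47.3 CPM in HET in CB (log2 fold change -0.24, adjusted p = 0.00355) and 235.3, 253.8, 232.8 and 233.4 CPM in WT CC and 202.2, 132.0, 178.4 and 136.8 CPM in HET CC (log2 fold change -0.56, adjusted p = 0.000818). Within HET CC, replicates 2 and 4 were the lowest for Slc16a7, Cobll1 and the other genes called lower in both, except Kcnj8 and Calcrl.

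Others of the 45 were Smad3, the signal carrier of TGF-beta (log2 fold change -0.26, adjusted p = 0.000869 in CB and log2 fold change -0.27, adjusted p = 0.0186 in CC), and Tgfbr3, its co-receptor (log2 fold change -0.31, adjusted p = 0.00826 in CB and log2 fold change -0.33, adjusted p = 0.0486 in CC). Dapk1, a kinase that promotes cell death, had 7.43 ± 1.25 in WT and 4.72 ± 0.4 CPM in HET (SD, n = 4) in CB (log2 fold change -0.65, adjusted p = 0.00635) and fell in CC too (log2 fold change -0.50, adjusted p = 0.0118). So did Sntb1, a syntrophin (log2 fold change -0.60, adjusted p = 0.002 in CB and log2 fold change -0.47, adjusted p = 0.0142 in CC), and Cd96, a receptor of T and NK cells (log2 fold change -0.54, adjusted p = 0.0467 in CB and log2 fold change -0.71, adjusted p = 0.014 in CC). Klf3 and Lef1, whose CB calls depend on single libraries, were also called lower in CC, with log2 changes of -0.32 and -0.38 (adjusted p = 0.0452 and 0.00514). These further genes were named after their values were seen.

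The gains in both were led by Cfap74, Kcng2, Trp73 and Ryk. Kcng2, a potassium channel subunit, measured 47.5, 45.4, 45.8 and 45.9 CPM in WT and 53.1, 49.9, 51.3 and 52.4 CPM in HET in CB (log2 fold change 0.16, adjusted p = 0.0253) and 22.7, 20.1, 24.6 and 23.5 CPM in WT CC and 35.8, 42.8, 30.5 and 39.6 CPM in HET CC (log2 fold change 0.71, adjusted p = 0.00299). Trp73 over all its peaks measured 153.9, 157.2, 154.4 and 162.4 CPM in WT and 177.0, 165.1, 184.2 and 173.0 CPM in HET in CB (log2 fold change 0.16, adjusted p = 0.0154) and 57.2, 57.3, 62.7 and 72.5 CPM in WT CC and 84.6, 98.04, 78.3 and 110.7 CPM in HET CC (log2 fold change 0.58, adjusted p = 0.00058). Cfap74 had a log2 change of 0.68 (adjusted p = 0.00489) and Ryk one of 0.46 (adjusted p = 0.0164) in CC. The difference between the CC and CB changes was tested over all 16 libraries, where 62 of 15075 genes (0.411%) were called. It passed for Kcng2 (adjusted p = 0.0286) and Trp73 (0.0467), whose CC gains were larger, and missed for Cfap74 (0.0662) and Ryk (0.263).

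Other CB losses were not seen in CC. Atp10b had a CC change in the opposite direction that was not called (log2 fold change 0.35, adjusted p = 0.101), and its effect differed between CC and CB by 0.68 on the log2 scale (adjusted p = 0.00464). Vipr2 (log2 fold change -0.02, adjusted p = 0.948) and Fcer2a (log2 fold change -0.08, adjusted p = 0.799) had small changes in CC, with no called difference. S1pr2, not called in CB, was higher in HET CC (46.5, 31.1, 50.6 and 57.3 CPM in WT CC and 59.6, 77.5, 62.8 and 78.9 CPM in HET CC, log2 fold change 0.59, adjusted p = 0.00567), and its effect differed by 0.66 (adjusted p = 0.0107). Among the called CB genes the difference passed for 2 of 136 higher and 6 of 346 lower. Il10 had a CC change of 0.30 that was not called (adjusted p = 0.121).

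**Figure D5:**
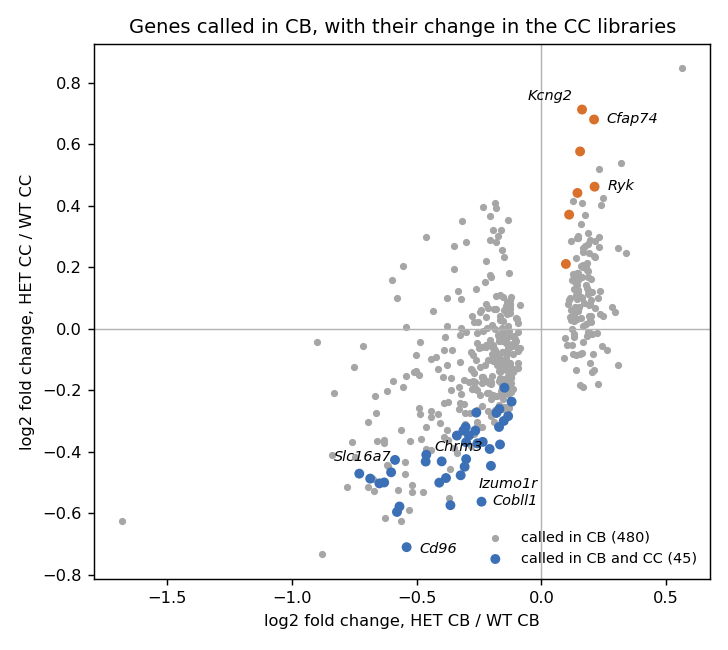
Log2 fold change of HET over WT in CB (x axis) and in CC (y axis) for the 480 genes called in CB and tested in CC; grey genes are called in CB and 45 larger points in CC too, blue lower and orange higher. All 45 lie in the corners of equal sign, and 385 of the 480 points do.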

How the data were processed

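Omni-ATAC libraries of spleen cells labelled CB and CC were analysed from the authors' deposited table of raw counts, 1 column per library, over 82188 peaks of 501 bp on 20 chromosomes. Per the submitters' processing notes, FastQC, BWA, deepTools, R 4.2.1 and the build mm10 were used. The peak caller, the counting of reads or cut sites and the filters on duplicates are not given in the sources used here, and only the counts were used. Each column of the table carries the name of a single sample, and groups follow the genotype label and the title.

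The 8 CB libraries were fitted alone with edgeR 4.0.16 in R 4.3.3 (TMM scaling, filterByExpr, robust quasi-likelihood, Benjamini-Hochberg over all features). The filter removed 116 of 82188 peaks and 8 of 15075 genes. Gene counts are sums over peaks, and library totals are those of all peaks. Of the peaks, 74773 (91.0%) were assigned, to 15075 of 21631 protein-coding genes in RefSeq's GRCm38.p6 annotation (mm10 is the same assembly), with limits of 50 kb for assignment and 1 kb for nearness to a gene end. Start windows are the 32619 RefSeq promoter entries on these chromosomes. The same fit was made for the 8 CC libraries and, with an interaction term, for all 16. Adjusted p-values are from edgeR unless DESeq2 1.42.0, run as an alternative, is named. The contrasts inside replicates 1 and 3 and inside replicates 2 and 4 were added after the libraries were seen to lie in pairs. Single shares were tested with exact permutation over libraries. The scripts were tested on simulated data. The alternatives were other scalings, filters, depths, chromosomes and libraries left out.

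Median depth per peak was 215 to 347 counts in CB, so counting error is small there. PCR copies are not independent molecules, and precision from counts covers counting error only. The 21 gene lists hold 378 genes, of which 348 had a peak, and lists overlap. The genes named are the 10 and 10 with the largest rise and fall among calls above the median level whose genotypes do not overlap, 6 and 6 peaks chosen likewise, the 8 genes with the most called peaks in 1 direction, up to 5 called members of each list (otherwise the 2 with the smallest p) and a fixed set of loci. Some genes that this rule names are not reported here. The comparison, members, lists and rules were chosen with earlier results of these data known. Replicate numbers were not used to pair the samples in the main fit, and the closing section gives a fit that does so.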

Additional observations from a re-analysis of the deposited data

Results flagged for a closer look

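Libraries that stood apart from the other 3 of their group were found for 7 of 162 groups of 4 values checked over the named genes and peaks, and chance gives about 1 in 20. The HET 3 library had 144.7 CPM at Il10, where the other HET libraries had 135.3 to 136.7. WT 3 had 61.5 CPM at Lrrc8d against 64.9 to 65.5 in the other WT libraries, WT 2 had 48.5 CPM at Ccnb1 against 44.3 to 44.6, and WT 4 had 6.56 CPM at Cd8b1 against 5.43 to 5.57. HET 1 stood apart at 3 peaks. It had 12.8 CPM at the peak 25959 bp from Il10 (others 14.2 to 14.3), 6.79 CPM at the peak 365662 bp from Atp23 (5.47 to 5.68) and 10.2 CPM at the intragenic Emb peak (7.93 to 8.22).

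The effect of the genotype differed between CC and CB by an edgeR interaction test at Atp10b, by 0.68 on the log2 scale (adjusted p = 0.00464), and at S1pr2, by 0.66 (adjusted p = 0.0107). It differed between the replicates 1 and 3 and the replicates 2 and 4 of CB at 6314 peaks and 3478 genes.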

How the results depend on the processing

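The counts of calls depend on which libraries enter. With all 16 libraries in the fit, 106 peaks (2 higher, 104 lower) and 83 genes (4 higher, 79 lower) were called, against 1076 peaks (416 and 660) and 482 genes (136 and 346). Leaving out 1 CB library at a time gave 269 to 904 peaks (68 to 385 higher, 201 to 540 lower) and 130 to 675 genes (18 to 185 higher, 111 to 490 lower). Replicates 1 and 3 only gave 5770 peaks (2700 higher, 3070 lower) and 3473 genes (1581 and 1892), replicates 2 and 4 only 6389 peaks (3442 and 2947) and 2742 genes (1275 and 1467), and the average of both 5772 peaks (2850 and 2922) and 2916 genes (1327 and 1589). These 3 were chosen after seeing the data.

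Higher peaks numbered 243 with total counts, 220 with loess offsets, 260 with a mean of at least 50 counts and 274 with all libraries thinned to equal totals. DESeq2 called 916 genes, 309 higher and 607 lower. The start window share of the higher peaks (38.7%) was 27.7% with loess offsets, 0 of 2 peaks (0%) with all 16 libraries, 24.4% in replicates 1 and 3, 25.4% in replicates 2 and 4, 33.2% for their average and 32.5 to 44.5% with 1 library left out. The share of the lower peaks beyond 50 kb (23.0%) was 27.9% with all 16 libraries, 7.26% in replicates 1 and 3, 19.7% for the average and 18.7 to 27.5% with 1 library left out. The difference in counts near gene ends (0.611 points) was 0.478 within 500 bp, where it reached the smallest p, and 0.514 to 0.766 with 1 library left out.

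The replicate numbers are shared by the groups, but same-numbered WT and HET libraries deviated in opposite ways (r of -0.156 to -0.124). All WT and HET libraries with odd and odd or even and even numbers gave the same range. The same number thus brought libraries no closer. Odd and even numbers did go along with Xist and Firre in both genotypes of CB. The labels do not say what a number stands for, so these values cannot exclude a pairing. The paired fit with the replicate block called 60 peaks (10 higher, 50 lower; start window share 50%, share beyond 50 kb 28%) and 35 genes (4 higher, 31 lower). Cd86 turned its sign in replicates 2 and 4 only, with a log2 change of 0.0603 (adjusted p 0.0494) against 0.00 in all 8. Of the 63 named calls, 36 held whichever single library was left out, 63 with DESeq2, 59 with total counts, 57 with loess offsets, 20 with all 16 libraries and 19 with the replicate block. The cause of these changes was not tested.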

Other observations

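The X-linked loci split the CC libraries in another way. Xist measured 52.1, 43.8, 40.8 and 40.5 CPM in WT CC 1 to 4 and 42.2, 28.1, 45.0 and 26.7 CPM in HET CC 1 to 4. Firre measured 177.7, 167.4, 156.6 and 131.7 CPM in WT CC and 190.1, 83.5, 169.5 and 73.6 CPM in HET CC. In HET CC, replicates 2 and 4 were low at both loci, as in HET CB, while no WT CC library was as low as these. Slc16a7, Cobll1 and Sntb1 were lowest in the same replicates 2 and 4 of HET CC. So were the other genes called lower in both CB and CC, except Kcnj8 and Calcrl. HET CC 2 and 4 were also the deepest CC libraries, with 7474760 and 6368844 counts. The part of depth or of the Xist split in these losses was not tested.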
